A study of Mus musculus with 6 samples.

Results

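Mitochondrial import and beta oxidation of long-chain fatty acids were followed through the transcripts of 10 genes in gastrocnemius (Gas) muscles of wild-type (WT) mice and of mice without miR-92b (M92KO). They are Acsl1, Cpt1a, Cpt1b, Cpt2, Acadvl, Acadl, Acadm, Hadha, Hadhb and Etfdh, chosen by name as the rows of the count table with these symbols, 10 of 34714 symbols in all. All 10 passed the filter on low counts, which left 15788 genes for testing. RNA-seq counts came from 6 libraries, 3 from WT and 3 from M92KO mice. WT mice were age-matched C57BL/6 mice, and M92KO mice carried the allele C57BL/6JGpt-Mir-92bem22Cd549/Gpt. All mice were males 8 weeks of age without treatment, with free access to food during housing. The knockout was global, so each tissue lacked the miRNA and not muscle alone. The study's methods describe an overnight fast before muscles were collected, in a passage on mice at the end of a treatment, and do not say whether it also applied to these untreated mice. Whether the WT mice were littermates is not given in the sources used here.

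A long-chain fatty acid that enters a muscle fibre is first joined to coenzyme A by an acyl-CoA synthetase such as Acsl1. Carnitine palmitoyltransferase at the outer mitochondrial membrane, of which Cpt1b is the muscle isoform and Cpt1a the liver isoform, exchanges the coenzyme A for carnitine and is inhibited by malonyl-CoA, and Cpt2 reverses the exchange inside. Acyl-CoA dehydrogenases for very long, long and medium chains (Acadvl, Acadl and Acadm) and the trifunctional protein of Hadha and Hadhb then shorten the chain round by round. Etfdh passes the electrons of the dehydrogenases on to ubiquinone.

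The deleted locus gives rise to a pair of mature miRNAs, and their sequences are shown because a seed match in a 3′-UTR is how a miRNA recognizes a target. The seed, bases 2 to 8, is in capitals. Sequences are from RefSeq (GRCm38.p6), where miR-92b-3p lies at chr3:89227126-89227147 and miR-92b-5p at chr3:89227165-89227188, both on the minus strand.
mmu-miR-92b-3p: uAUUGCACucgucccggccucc
mmu-miR-92b-5p: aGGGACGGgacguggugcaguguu

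All 10 genes had an annotated 3′-UTR, and 4 matches lay in 3 of them. The matched bases are in capitals in the 28-base windows from GRCm38. The 6-base matches TGCAAT to miR-92b-3p lay in Acsl1 (chr8:46535262-46535267), Cpt1a (chr19:3385489-3385494) and Hadhb (chr5:30184226-30184231), all on the plus strand. The 7-base match CGTCCCA to miR-92b-5p lay in Acsl1 (chr8:46535226-46535232).
Acsl1, miR-92b-3p: tgccttagactcTGCAATgaagatggta
Cpt1a, miR-92b-3p: agcagttaccaaTGCAATtttttactcc
Hadhb, miR-92b-3p: tcttaaatacttTGCAATccagccttgc
Acsl1, miR-92b-5p: ctccctccccctCGTCCCAggggttata

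A match of 6 or more bases to miR-92b-3p was thus present in 3 of the 10 genes, against 27.4% of 13666 tested genes with an annotated 3′-UTR. Counting only matches of 7 or 8 bases, the number for miR-92b-3p was 0 of 10 genes, against 14.5% of genes. For miR-92b-5p it was 1 of 10 genes, against 5.93% of genes. These are matches of letters, and whether the miRNAs bind there was not tested.

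The libraries held between 33160508 and 48209846 counts, and the 3 M92KO libraries were the smallest. M92KO replicate 1 stood apart from the rest of its group. Its chi-square per gene was 57.4 against either of the other two M92KO libraries, while the remaining pairs within a group gave 10.9 to 29.6. Fast skeletal muscle was recognizable from its fast fibre genes, whose 10 members summed to between 110400 and 123800 CPM in every library. Here CPM are counts relative to the normalized size of the library. These genes do not tell Gas from other fast muscles. With edgeR's quasi-likelihood test, 0 of 15788 genes passed an adjusted p-value of 0.05, and 1955 genes (12.4%) passed the unadjusted threshold of 0.05 that the study used. DESeq2 gave 312 genes (1.98%) at the adjusted threshold. Of the genes passing the unadjusted threshold in edgeR, 44.1% were higher in M92KO mice. This share was 54.4% with the normalization and limma test of the study's methods. Those steps were run on all 34714 symbols without the filter on low counts, so the set of genes differed too. Nothing in the labels says more of the replicates than their number, so the p-values measure the spread between these samples.

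Among the 10 genes, 1 was lower and 0 were higher in M92KO mice at the unadjusted threshold, where 6.92% of all genes tested were lower and 5.47% were higher. The lower gene was Cpt1a, and 0 of the 10 passed the adjusted threshold in edgeR. In 1 of the 10, again Cpt1a, the M92KO values did not overlap the WT values and were lower. Of all genes tested, 18.4% did not overlap, 9.58% with lower and 8.77% with higher M92KO values. Log2 fold changes were negative for 9 of the 10 genes, beside 7897 of all 15788 genes tested. The median of the 10 was -0.035 beside -0.00 for all genes tested. With a library left out, this median ranged from -0.12 (without M92KO replicate 3) to 0.02 (without WT replicate 2), so its sign depended on the libraries. In a bulk sample, fewer cells of a type and less RNA per cell cannot be told apart, and this holds for every level below.

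**Figure D1:**
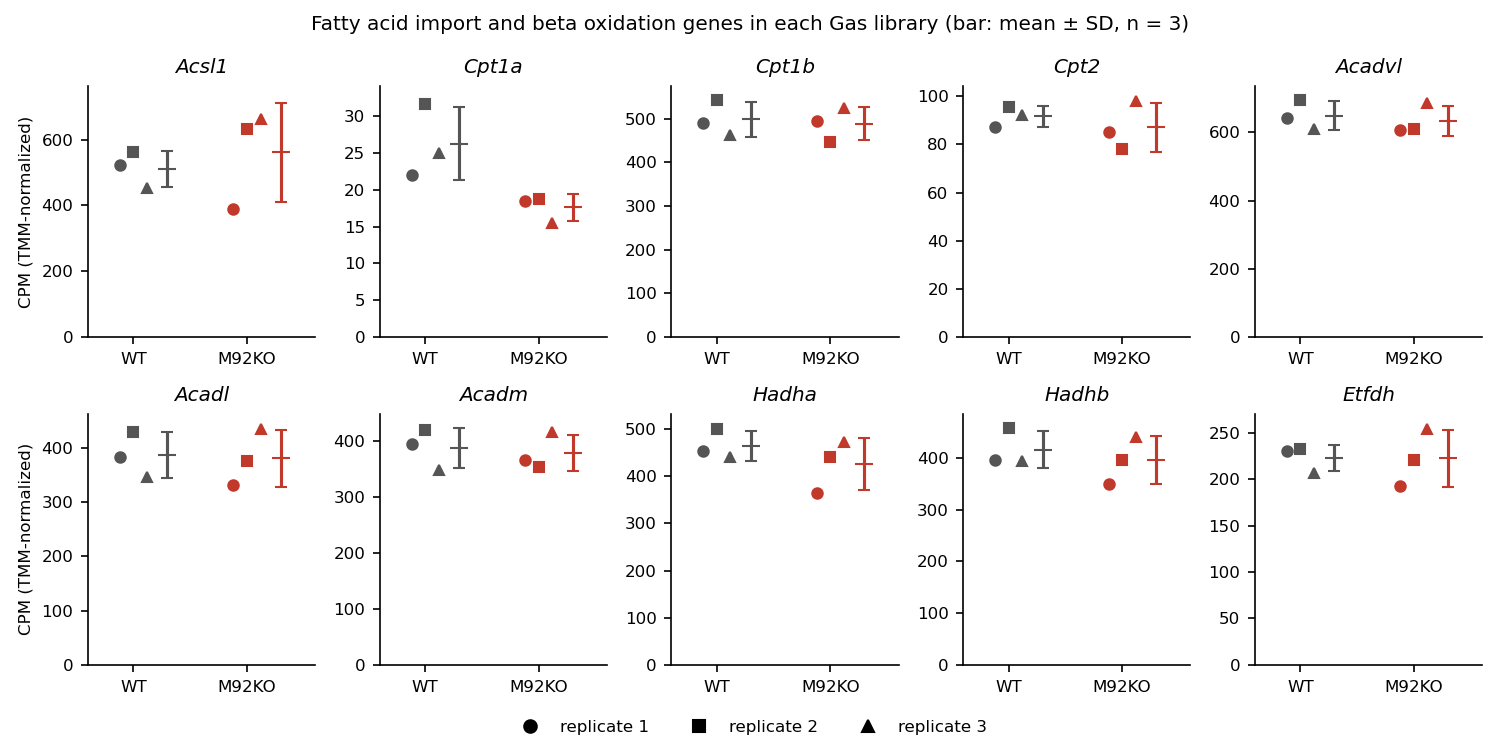
Level of each of the 10 genes in CPM (TMM-normalized, linear axis from 0) in the 3 WT (grey) and 3 M92KO (red) libraries, with the mean ± SD beside the points. Cpt1a is the gene whose M92KO points all lie below the WT points, and M92KO replicate 1 (red circle) is the lowest point for 6 of the 10 genes.

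Acsl1, the main acyl-CoA synthetase of muscle and the holder of both kinds of seed match shown above, stood at 522, 561 and 452 CPM in the WT libraries and at 389, 631 and 662 CPM in the M92KO libraries. M92KO replicate 1 was the lowest of all 6 libraries and the other two M92KO libraries were the highest, so the groups overlapped. The means were 512 ± 55.1 CPM in WT and 561 ± 149 CPM in M92KO mice (SD, n = 3). The log2 fold change was 0.13 ± 0.18 (SE), with an adjusted p-value of 0.824 in edgeR and a 95% confidence interval of the fold from 0.819 to 1.47. This result rested on 1 library. Without M92KO replicate 1 the log2 fold change was 0.34 ± 0.09 (SE), with an interval of the fold change from 0.14 to 0.54 on the log2 scale. Acsl1 then passed the unadjusted threshold, as did 18.6% of all genes in either direction and 9.62% in this one. Its adjusted p-value was 0.0906 in edgeR, where 2.5% of all genes were under 0.05. It was the only one of the 10 genes whose call at the unadjusted threshold moved under any of 15 other settings. Acsl1 shares 1039 exon bases with Gm45244 on the opposite strand, which is not analysed here.

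Cpt1a, the liver isoform of the carnitine palmitoyltransferase that admits fatty acids to the mitochondrion, was lower in M92KO mice at the unadjusted threshold. It holds the 6-base match to miR-92b-3p shown above. Its levels were 22.0, 31.6 and 25.0 CPM in WT and 18.5, 18.7 and 15.5 CPM in M92KO libraries, from counts of 564 to 1222 reads. All 3 M92KO libraries lay below the lowest WT library, M92KO replicate 1 included. The means were 26.2 ± 4.93 and 17.6 ± 1.79 CPM (SD, n = 3), a fold of 0.671 with a 95% confidence interval from 0.538 to 0.838. The log2 fold change was -0.58 ± 0.14 (SE), and its adjusted p-value was 0.193 in edgeR. The exact two-sided permutation test gave 0.1, the smallest p-value that 3 against 3 libraries allow. Cpt1a stayed past the unadjusted threshold in 15 of 15 other settings. With a library left out its log2 fold change ranged from -0.69 to -0.42. Its adjusted p-value was 0.0137 with DESeq2, 0.0890 in edgeR without M92KO replicate 1, and between 0.0137 and 0.640 over all settings.

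Cpt1a is expressed in many cell types, and of the marker lists of other cells the fibroblast list was the one whose sum did not overlap between the genotypes. The 6 fibroblast markers summed to 1789, 1421 and 1435 CPM in WT and to 942.5, 1331 and 1277 CPM in M92KO libraries. None of the 6 was at 0. Within each group the order of these sums differed from that of Cpt1a. WT replicate 2 had the most Cpt1a but the lowest WT sum. M92KO replicate 3 had the least Cpt1a, while the lowest sum was in M92KO replicate 1. Of the 6 fibroblast markers, 2 were lower at the unadjusted threshold, beside 6.92% of all genes, with a median log2 fold change of -0.36. They were Dcn (log2 fold change -0.33, adjusted p-value 0.188 in edgeR) and Col1a1 (-0.55, adjusted p-value 0.328 in edgeR). The 6 macrophage and leukocyte markers summed to between 87.95 and 94.72 CPM in WT and between 64.7 and 94.52 CPM in M92KO libraries, and none was at 0. These sums overlapped, and M92KO replicate 3, the library with the least Cpt1a, lay within the WT range. Of the 6, 1 was lower at the unadjusted threshold, Ptprc (-0.53, adjusted p-value 0.304 in edgeR), and the others ranged up to 0.42 for Cd68. The part of these cells in the Cpt1a difference was not tested.

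Cpt1b, the muscle isoform, overlapped between the genotypes. It stood at 489.9, 542 and 462 CPM in WT and at 495, 447 and 523 CPM in M92KO libraries. The groups overlapped throughout, with means of 498 ± 40.9 and 489 ± 38.7 CPM (SD, n = 3). The log2 fold change was -0.03 ± 0.09 (SE), with an adjusted p-value of 0.935 in edgeR and a 95% confidence interval of the fold from 0.851 to 1.13. Cpt1b (chr15:89416405-89425863, minus strand, GRCm38) shares 2744 bases of exon with Gm44502, a longer gene model on the same strand, so the split of reads between the 2 rows is uncertain. Gm44502 took 86, 48 and 96 reads in WT libraries against 451, 280 and 24 reads in M92KO libraries, which is small beside the 14632 to 22634 counts of Cpt1b.

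Per length, Cpt1b was the main carnitine palmitoyltransferase transcript. In WT libraries it stood at 148 ± 12.1 CPM per kb of exon and Cpt1a at 3.43 ± 0.645 CPM per kb (SD, n = 3), a ratio of 43.7 on average. The ratio was 28.8 when the longest transcript replaced the union of exons. In raw CPM, Cpt1a amounted to 4.49%, 5.83% and 5.42% of Cpt1b in WT and to 3.73%, 4.20% and 2.97% in M92KO libraries. All 3 M92KO shares were below the WT shares, with a difference of -0.54 on the log2 scale (exact permutation p-value 0.1, the smallest possible). The pair was chosen after its values were seen.

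**Figure D2:**
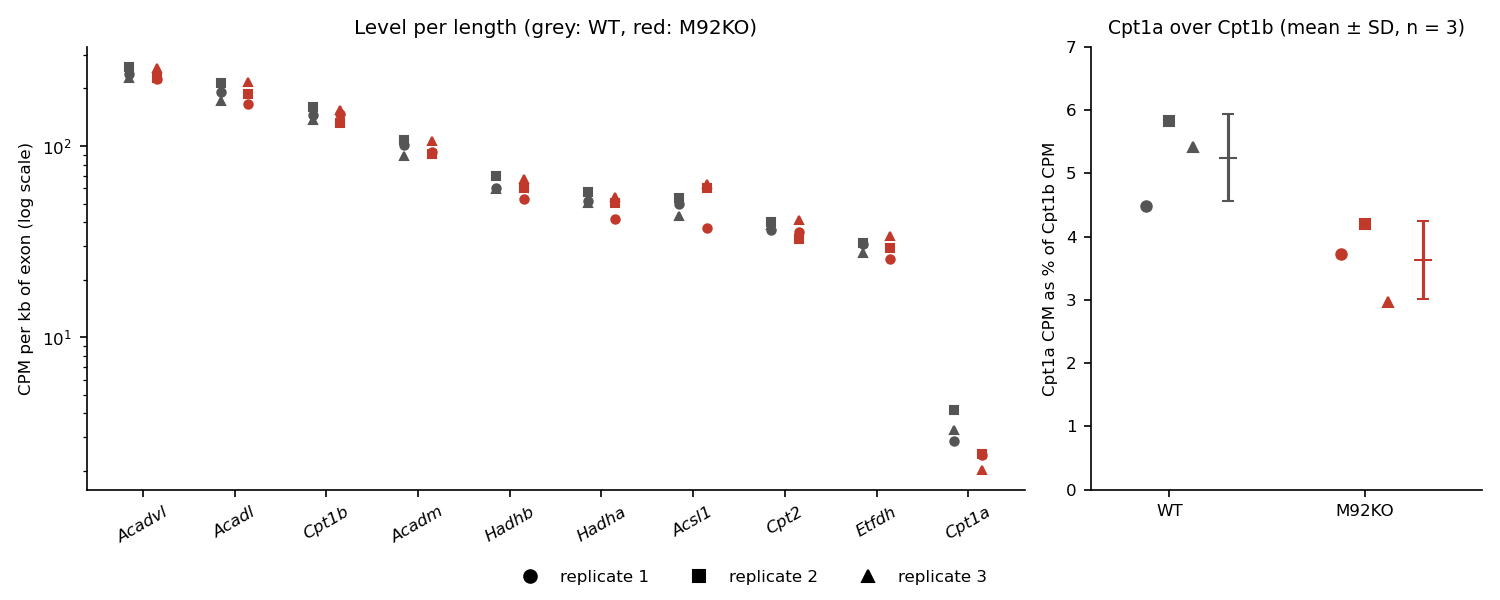
Left, CPM per kb of exon (log axis) of the 10 genes in each library, ordered by the WT mean, with grey for WT and red for M92KO. Right, Cpt1a CPM as a percentage of Cpt1b CPM in each library with mean ± SD (n = 3); the 3 M92KO points lie between 2.97% and 4.20% and the WT points between 4.49% and 5.83%.

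Cpt2, the inner membrane enzyme that returns the acyl group to coenzyme A, stood at 87.1, 95.5 and 92.3 CPM in WT and at 85.0, 78.1 and 98.2 CPM in M92KO libraries. The highest and the lowest of the 6 values were both in M92KO mice. The log2 fold change was -0.07 ± 0.09 (SE), with an adjusted p-value of 0.803 in edgeR and a 95% confidence interval of the fold from 0.823 to 1.10.

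The 3 acyl-CoA dehydrogenases, which take the first oxidation step of a round, overlapped between the genotypes. Acadvl, for very long chains and the most abundant of the 10 genes per length, stood at 643, 695 and 609 CPM in WT and at 605, 609 and 685 CPM in M92KO libraries. Acadl, for long chains, stood at 384, 430.0 and 346 CPM in WT and at 331, 375 and 436 CPM in M92KO libraries. Acadm, for medium chains, stood at 394, 419 and 349 CPM in WT and at 365, 354 and 415 CPM in M92KO libraries. WT replicate 2 and M92KO replicate 3 were the highest libraries of their groups each time. Log2 fold changes were -0.04, -0.02 and -0.03, with adjusted p-values of 0.907, 0.961 and 0.922 in edgeR. The 95% confidence intervals of the fold were 0.855 to 1.11 for Acadvl, 0.819 to 1.18 for Acadl and 0.841 to 1.13 for Acadm. Acadvl shares 1151 exon bases with Dvl2 on the opposite strand, a gene of 8.16 to 10.1 CPM, and whether the counting used strand is not given in the sources used here.

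Hadha and Hadhb encode the alpha and beta subunits of the trifunctional protein, which carries out the remaining steps of a round on long chains. The genes lie head to head on chromosome 5, Hadha on the minus strand (chr5:30118304-30155162) and Hadhb on the plus strand (chr5:30155248-30184593), with 85 bases between their annotated starts. Hadha stood at 452, 499.9 and 439.9 CPM in WT and at 363, 441 and 472 CPM in M92KO libraries. Hadhb, with the 6-base match to miR-92b-3p shown above, stood at 396, 457 and 395 CPM in WT and at 349.9, 397 and 441 CPM in M92KO libraries. M92KO replicate 1 was the lowest library for both genes, and the groups overlapped for both. The log2 fold changes were -0.13 ± 0.11 (SE) for Hadha and -0.07 ± 0.10 (SE) for Hadhb, with adjusted p-values of 0.691 and 0.830 in edgeR. Their 95% confidence intervals of the fold were 0.776 to 1.08 and 0.810 to 1.12. Without M92KO replicate 1 the log2 fold changes were -0.02 and 0.01. Hadha shares 75 exon bases with Garem2 on the opposite strand, which had at most 2 counts in a library.

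The CPM ratio of Hadha to Hadhb varied little, at 1.12 ± 0.024 in WT and 1.07 ± 0.0367 in M92KO mice (SD, n = 3). Its values overlapped between the groups, with an exact permutation p-value of 0.2.

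Etfdh, the ubiquinone oxidoreductase that takes up the electrons, stood at 230.0, 232 and 207 CPM in WT and at 193, 220.3 and 254 CPM in M92KO libraries. M92KO libraries were both the lowest and the highest. The log2 fold change was -0.00 ± 0.11 (SE), with an adjusted p-value of 0.994 in edgeR and a 95% confidence interval of the fold from 0.845 to 1.18. Etfdh shares 278 exon bases with 4930579G24Rik on the opposite strand, which had 1.47 to 2.35 CPM. The intervals of the 8 genes other than Cpt1a and Acsl1 thus lay between 0.776 and 1.18 of the WT level and all included a fold of 1.

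**Figure D3:**
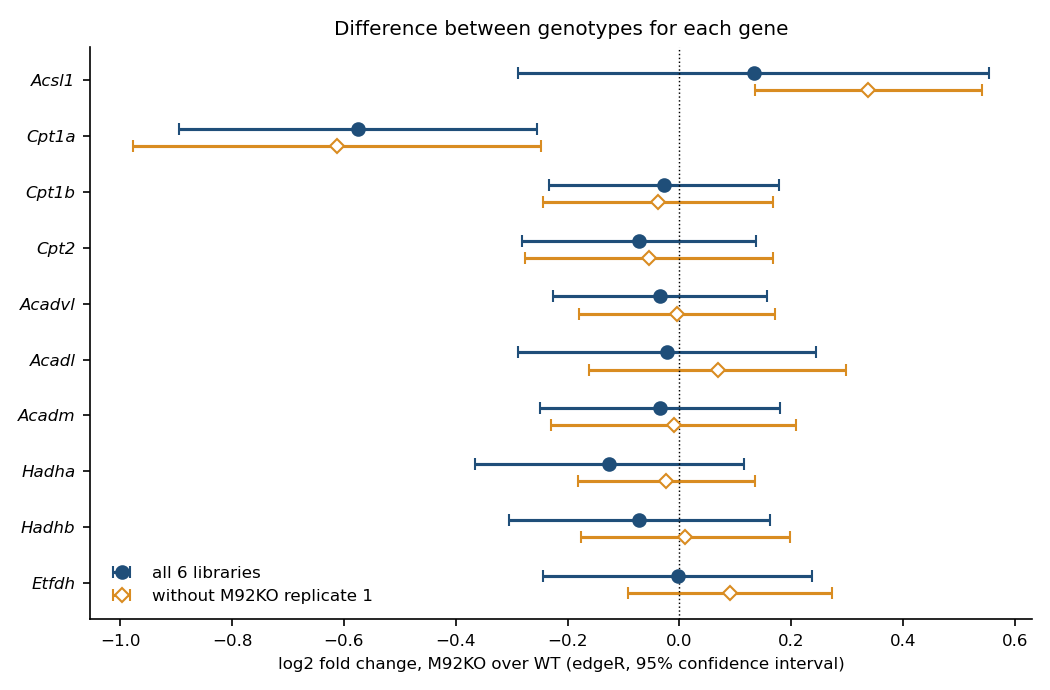
Log2 fold change of each gene, M92KO over WT, with its 95% confidence interval from edgeR, for all 6 libraries (filled circles) and without M92KO replicate 1 (open diamonds). The interval of Cpt1a lies below 0 in both fits, that of Acsl1 lies above 0 only without M92KO replicate 1, and the intervals of the other 8 genes include 0 in both.

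The summed level of the 10 genes was 3620, 3963 and 3377 CPM in WT and 3196, 3571 and 4003 CPM in M92KO libraries. M92KO replicate 1 held the lowest value for 6 of the 10 genes and the highest for 0, while WT replicate 2 was highest for 6 and M92KO replicate 3 for 4. Both the lowest and the highest sum were therefore in M92KO mice. The genes did not share one order of libraries. Within M92KO mice, Cpt1b, Cpt2 and Acadm were lowest in replicate 2 and Cpt1a in replicate 3.

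Per kb of exon, the WT order ran from Acadvl (242 ± 16.1), Acadl (193 ± 20.9), Cpt1b (148 ± 12.1) and Acadm (98.99 ± 9.13) through Hadhb (63.1 ± 5.38), Hadha (53.2 ± 3.63), Acsl1 (48.8 ± 5.25) and Cpt2 (38.3 ± 1.76) to Etfdh (29.7 ± 1.88) and Cpt1a (3.43 ± 0.645 CPM per kb, SD, n = 3). Neighbours in this order did not overlap in the WT libraries, except Hadha and Acsl1. The order in M92KO mice was the same but for these 2 genes, which changed places. With the longest transcript in place of the union of exons, Acadm stood above Cpt1b, Hadha above Hadhb and Etfdh above Cpt2.

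The genes around the 10 in the pathway, 38 in all, showed 5 lower and 1 higher in M92KO mice at the unadjusted threshold, beside the 6.92% and 5.47% of all genes given above. Their median log2 fold change was -0.05, and 0 of the 38 passed the adjusted threshold in edgeR, while 1 of them, Acot2, passed it in DESeq2. Without M92KO replicate 1 the counts were 7 lower and 3 higher, where 8.96% and 9.62% of all genes were. Leaving out WT replicate 2 or M92KO replicate 2 left 2 lower genes, Acot2 and Slc22a5. Of the lower genes named below, these 2 stayed past the unadjusted threshold in 6 of 6 fits with a library left out. Slc27a1 and Acaa2 did in 4 of 6 and Acot1 in 3 of 6. For each list below, 6.92% lower and 5.47% higher among all genes tested stand beside its counts with all 6 libraries.

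Of 9 genes for the uptake, binding and release of fatty acids, 1 was lower, the transport protein Slc27a1 (140 ± 22.9 CPM in WT, 105 ± 13.5 CPM in M92KO mice, log2 fold change -0.41 ± 0.13 SE, adjusted p-value 0.281 in edgeR). Of 9 other acyl-CoA synthetases and thioesterases, 2 were lower, both thioesterases that release the fatty acid from coenzyme A. Acot2, the mitochondrial one, stood at 21.7, 28.2 and 20.3 CPM in WT and at 16.3, 14.1 and 17.0 CPM in M92KO libraries. Its groups did not overlap, as in 18.4% of all genes tested. The log2 fold change of Acot2 was -0.57 ± 0.14 (SE, adjusted p-value 0.188 in edgeR, 0.0140 with DESeq2 and up to 0.648 over the other settings). Acot1, its cytosolic neighbour with a near-identical sequence, had 2.30 ± 0.724 and 1.28 ± 0.289 CPM (SD, n = 3) and a log2 fold change of -0.83 ± 0.28 (SE, adjusted p-value 0.304 in edgeR). Reads can be shared between these 2 genes, so both values are uncertain.

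Of 4 other genes of carnitine supply and the carnitine shuttle, 1 was lower, the plasma membrane carnitine transporter Slc22a5. It stood at 24.9, 28.4 and 24.2 CPM in WT and at 20.96, 19.97 and 20.05 CPM in M92KO libraries. The groups did not overlap, as in 18.4% of all genes tested, and the log2 fold change was -0.35 ± 0.08 (SE, adjusted p-value 0.195 in edgeR). Of the 3 genes that make or remove malonyl-CoA, 1 was higher, the acetyl-CoA carboxylase Acaca (21.9 ± 1.51 and 26.9 ± 4.35 CPM, log2 fold change 0.29 ± 0.12 SE, adjusted p-value 0.388 in edgeR). The most abundant of the 3, the carboxylase Acacb, was named after its values were seen. It overlapped between the groups (399 ± 29.95 and 403 ± 42.0 CPM, log2 fold change 0.02 ± 0.10 SE, adjusted p-value 0.964 in edgeR). The call of Acaca, like those of Slc27a1, Acot1 and Acaa2, depended on the libraries. Without M92KO replicate 1 the log2 fold change of Acaca was 0.42 with an adjusted p-value of 0.0378 in edgeR. In that fit 2.5% of all genes were under 0.05. Without any one of 4 other libraries Acaca no longer passed the unadjusted threshold.

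Of 11 further enzymes of the beta oxidation spiral, 1 was lower, the thiolase Acaa2 (241 ± 21.9 and 202 ± 11.7 CPM, log2 fold change -0.25 ± 0.08 SE, adjusted p-value 0.295 in edgeR). A negative log2 fold change was found for 10 of the 11, beside 7897 of all 15788 genes tested. Neither of the 2 subunits of the electron transfer flavoprotein, which links the dehydrogenases to Etfdh, passed the unadjusted threshold. The more abundant, Etfa, stood at 271 ± 8.81 CPM in WT and 278 ± 26.9 CPM in M92KO mice, with an adjusted p-value of 0.901 in edgeR.

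**Figure D4:**
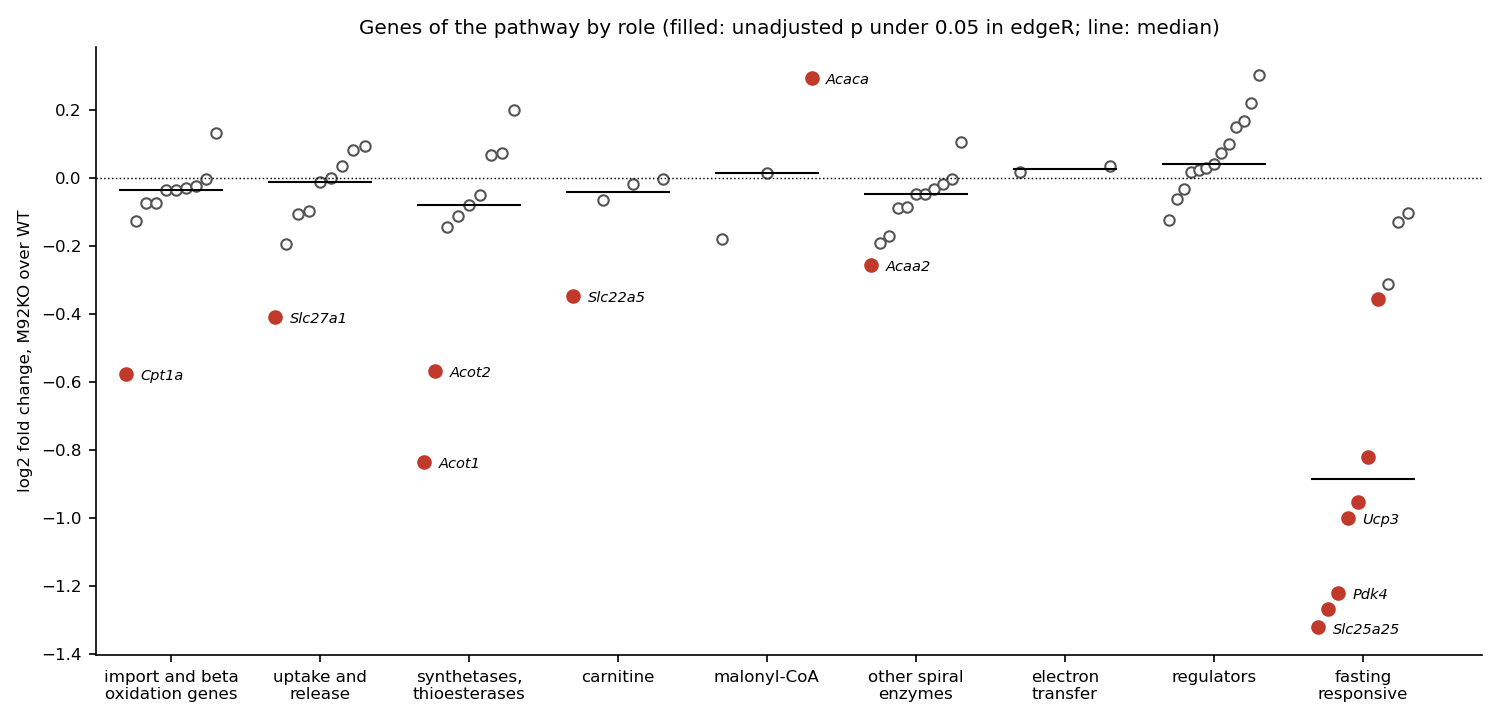
Log2 fold change, M92KO over WT, of the 10 genes and of other genes by role, 1 point a gene, with filled points for an unadjusted p-value under 0.05 in edgeR and a line at the median of each list; at most 4 filled points a list are named. Most lists centre near 0 with single genes below, while the fasting-responsive list has 7 of 10 genes filled and a median of -0.89. Of all genes tested, 12.4% passed this threshold in either direction, and the lists were written with earlier results of these data known.

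Cpt1a is also a known target of PPAR nuclear receptors, and a mixed list of muscle genes that respond to fasting or to PPAR was set beside it. Of these 10 genes, 7 were lower and 0 higher at the unadjusted threshold, beside 6.92% and 5.47% of all genes tested. The median log2 fold change was -0.89, and 0 of the 10 passed the adjusted threshold in edgeR. The list was written with earlier results of these data known, so the count is not independent of them. Pdk4, the kinase that shuts off pyruvate dehydrogenase when fat is burned, stood at 864, 1775 and 1251 CPM in WT and at 754, 481 and 435 CPM in M92KO libraries. The groups did not overlap, as in 18.4% of all genes tested, but WT replicate 1 and M92KO replicate 1 lay close together. Its log2 fold change was -1.22 ± 0.28 (SE), with an adjusted p-value of 0.179 in edgeR. The log2 fold change of Pdk4 without M92KO replicate 1 was -1.50 with an adjusted p-value of 0.0332 in edgeR, in a fit where 2.5% of all genes were under 0.05, and over the libraries left out its adjusted p-value reached 0.555.

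Ucp3 and Slc25a25 of this list are named by the same rule. Ucp3, an uncoupling protein of muscle mitochondria, had a log2 fold change of -0.998 ± 0.28 (SE, adjusted p-value 0.236 in edgeR), and its groups overlapped. Slc25a25, an ATP-Mg carrier, stood at 208, 321 and 669.5 CPM in WT and at 110.1, 181 and 189 CPM in M92KO libraries. Its log2 fold change was -1.32 ± 0.39 (SE, adjusted p-value 0.256 in edgeR), and -0.73 without WT replicate 3, the highest library (adjusted p-value 0.575 in edgeR). The labels give no feeding state at collection for any library, and its part in these values was not tested.

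None of 13 transcriptional regulators of oxidative genes passed the unadjusted threshold in edgeR with all 6 libraries, and their median log2 fold change was 0.04. The most abundant, the nuclear receptor Rxra, stood at 162 ± 4.96 CPM in WT and 159 ± 7.61 CPM in M92KO mice, with an adjusted p-value of 0.890 in edgeR. Without M92KO replicate 1, 5 of the 13 were higher at the unadjusted threshold, where 9.62% of all genes were. They were Ppara, Ppargc1a, Esrrb, Esrrg and Ncor1, named after their values were seen.

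Of 10 genes for mitochondrial content, 1 was higher, beside 5.47% of all genes tested, and the median of the list was -0.04. The higher gene was the import receptor Tomm20 (88.7 ± 4.04 and 109 ± 7.06 CPM, log2 fold change 0.29 ± 0.07 SE, adjusted p-value 0.208 in edgeR). Tomm20 passed the adjusted threshold without M92KO replicate 1 (0.34, adjusted p-value 0.0302 in edgeR), as did 2.5% of all genes in that fit. The summed level of the 10 genes for mitochondrial content was 11600 to 12420 CPM in WT and 10650 to 12360 CPM in M92KO libraries. The lowest sum was again in M92KO replicate 1.

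Fibre composition was read from marker genes, since oxidative fibres hold more of the beta oxidation enzymes. Of 8 slow fibre markers 5 had a negative log2 fold change, with a median of -0.22. At the unadjusted threshold 1 was higher, beside 5.47% of all genes tested. The higher marker was Myoz2 (log2 fold change 0.78 ± 0.25 SE, adjusted p-value 0.281 in edgeR), whose groups overlapped through M92KO replicate 1 at 55.0 CPM. The 8 summed to between 225.8 and 320.9 CPM in WT and between 181.9 and 347.2 CPM in M92KO libraries. Of 10 fast fibre markers, with a median of 0.02, 1 was higher, again beside 5.47% of all genes tested. This was Myh2, the myosin heavy chain of oxidative fast fibres (0.70 ± 0.24 SE, adjusted p-value 0.314 in edgeR). Myh2 stood at 2124, 2239 and 1612 CPM in WT and at 2018, 3575 and 4099 CPM in M92KO libraries. M92KO replicate 1 lay among the WT libraries and the other two M92KO libraries above them, the same libraries in which Acsl1 was highest. Without M92KO replicate 1, 2.5% of all genes passed the adjusted threshold. Among them were Myh2 at a fold of 1.93 (adjusted p-value 0.0170 in edgeR) and Myoz2 at a fold of 2.08 (adjusted p-value 0.00602 in edgeR). In that fit Pvalb and Tnnt1, named after their values were seen, also passed the unadjusted threshold as lower genes. The part of fibre composition in the Acsl1 values was not tested.

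The genes whose profile over the 6 libraries was most like the mean profile of the 10 were looked for among 8735 genes of at least 10 CPM on average, by the root mean square difference of centred log2 CPM. The closest was Hadh at 0.024, the short chain hydroxyacyl-CoA dehydrogenase of the same spiral, followed by Riok1 (0.0301), Maged2 (0.0308), Ctnna1 (0.0327) and Ugdh (0.0381), where the median gene had 0.152. This difference also grows with how far a gene varies, so the median does not measure likeness alone. The closest genes were picked out of 8735 over only 6 libraries. Of the 10 genes themselves, Hadhb was nearest to their mean profile at 0.0281, and Acsl1 (0.206) and Cpt1a (0.299) were farthest. The 10 genes are part of that mean, so their own distances are not independent of it.

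Promoters were searched on both strands in RefSeq windows of 300 bases around a start (GRCm38.p6), for letters that regulators of these genes are known to read. There were 10 windows for 9 of the genes, 2 of them for Acsl1. No window was available for Cpt1b, so its promoter was not searched. The windows of Hadha (chr5:30154931-30155230) and Hadhb (chr5:30155003-30155302) overlapped, so these are not separate stretches. The nuclear receptor core AGGTCA was found in 3 of the 10 windows, those of Cpt1a, Acadvl and Acadm, against 16.3% of 32851 promoters. The NRF1 palindrome, GCGCA followed by its reverse complement, was found in 1 window, that of Etfdh, against 0.971% of promoters. The matches are shown with the matched letters in capitals, as read on the strand of the gene, because Cpt1a, which was lower, and Acadvl and Acadm, which overlapped between the genotypes, hold the same letters.
Cpt1a, 94 bases before the start: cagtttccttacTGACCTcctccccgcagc
Acadvl, 87 bases before the start: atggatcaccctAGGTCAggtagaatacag
Acadm, 249 bases before the start: gTGACCTtcgggctccggt
Etfdh, 128 bases before the start: tgcttctaggGCGCATGCGCacacgcgaga

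The extended core TCAAGGTCA, a direct repeat of AGGTCA with 1 base between the copies, the E-box CACGTG and the letters TATAAA were in 0 of the 10 windows, against 0.423%, 0.0396%, 7.15% and 13.6% of all promoters. The first 2 of these contain the letters AGGTCA, so their counts are not independent of it.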

How the data were processed

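Gas muscle RNA was sequenced from SMARTer libraries, 3 for WT and 3 for M92KO mice. The authors deposited raw counts of reads on 34714 gene symbols, without normalization. The submitters' processing notes name the builds GRCm38 and mm10, and the aligner, counter and strand setting are not given in the sources used here. Symbols were matched to GENCODE M21 (GRCm38), 25731 directly and 424 by a synonym. The miRNA and promoter sequences are from RefSeq, and target sites were read from the transcripts of GENCODE M21.

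The test was edgeR's quasi-likelihood test (edgeR 4.0.16, R 4.3.3) between M92KO and WT over all 6 libraries, without covariates, with TMM factors and the genes that filterByExpr kept (minimum count 10, minimum total 15). p-values were adjusted by the Benjamini-Hochberg method over all 15788 genes tested. Gene values are CPM of TMM-normalized libraries, and single values were also compared with two-sided exact permutation tests of log2 CPM. Levels between genes were compared per kb of exon. Library totals were 33160508 to 48209846 counts, for which a floor of 3 counts came to 0.0622 to 0.0905 CPM. Such floors cover counting error only.

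The genes and the lists around them were chosen with earlier results of these data known. Named genes are the 10 themselves, at most 4 genes with an unadjusted p-value under 0.05 from each list (the most abundant gene where none passed), the 5 genes most like the mean profile, and genes whose exons overlap one of the 10. The knocked-out locus is not analysed here, and 1 gene under this rule is not reported here.

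Alternatives were DESeq2 1.42.0 (its size factors, and its Wald test), other filters on low counts, the study's own steps (quantile normalization, log2 of the value plus 1, and limma 3.58.1) on counts and on CPM, offsets for GC content and length (lowess span 0.3), the replicate number as a block, and leaving out each library. On simulated data of this design with 2-fold changes, edgeR found 145 of 194 changed genes with 5 false calls among 15745 genes, and DESeq2 found 144 with 13 false calls. The study's limma steps found 15 of 200 with 45 false calls among 34714 genes. The simulated spread of tested genes followed the trend over all genes, without spread particular to a gene. No simulated library was made to stand apart from its group, so recovery in the real data can differ. Summaries and figures were made in Python 3.11.15.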

Additional observations from a re-analysis of the deposited data

How the results depend on the processing

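Of 150 results for the 10 genes (10 genes under 15 other settings), 149 kept their direction and their side of the unadjusted threshold or did not pass it in either fit, all by the unadjusted p-value, and the exception was Acsl1 without M92KO replicate 1, at 0.34 on the log2 scale. The number of the 10 genes that were higher then was 1 instead of 0. Over the libraries left out, this number ranged from 0 to 1. The cause was not tested.

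Over all genes, 1955 passed the unadjusted threshold and between 1222 and 2984 did with a library left out (1222 without WT replicate 2, 1272 without WT replicate 3, 2984 without M92KO replicate 1). The number with an adjusted p-value under 0.05 was 0 in edgeR. It was 312 with the DESeq2 Wald test, 6 with no filter on low counts, 42 with the study's steps on counts and 8 with those steps on CPM, and between 0 and 401 with a library left out (401 without M92KO replicate 1). Of the genes past the unadjusted threshold, 863 were higher and 1092 lower in edgeR, and 1244 were higher and 1043 lower with the study's steps on counts. The study's steps were run on all 34714 symbols without a filter, against 15788 genes in edgeR. Among the 38 other genes of the pathway, the number that were lower, 5, ranged from 2 to 7 with a library left out. The number that were higher, 1, was 0 with the study's steps on counts and on CPM, and ranged from 0 to 3 with a library left out. The ratio of Cpt1b to Cpt1a per kb in WT was 28.8 with the longest transcript, and matches to miR-92b-3p numbered 0 when only 7 or 8 bases counted.

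The replicate numbers in the labels were tested as a pairing. Deviations of same-numbered libraries correlated at 0.0806, 0.0376 and 0.0151, and those of differently numbered libraries at -0.0686 to 0.0365. Correlations this weak, from 3 libraries a group, cannot decide whether the numbers pair the samples. With the replicate block, 2 genes passed the adjusted threshold, also 2 with the GC and length offsets added, and 0 pathway genes were higher at the unadjusted one. The block changed no call for the 10 genes.

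With 3 libraries a group, the confidence intervals give the precision gene by gene.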

Other observations

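Peroxisomes shorten very long chains before mitochondria take them over, by a separate set of enzymes. Of 13 peroxisomal beta oxidation genes, 1 was lower in M92KO mice at the unadjusted threshold and 0 were higher. Of all genes tested, 6.92% were lower and 5.47% higher. The median log2 fold change of the 13 was -0.00. The lower gene was Abcd2, an importer of very long chain acyl-CoA, at 85.3, 96.5 and 91.2 CPM in WT and 73.7, 76.0 and 82.2 CPM in M92KO libraries. All 3 M92KO values lay below the WT values, as they did for 9.58% of all genes tested. The log2 fold change of Abcd2 was -0.24 ± 0.08 (SE), with an adjusted p-value of 0.281 in edgeR.

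Fat cells between the fibres express lipid genes of their own. Of 8 fat cell markers 7 were tested, since Lep was below the filter on low counts, and 1 was lower, beside 6.92% of all genes tested. This was Pparg (log2 fold change -0.55 ± 0.20 SE, adjusted p-value 0.328 in edgeR), while the median of the 7 was 0.62. Pparg was the 1 of the 7 with a negative log2 fold change. The 8 summed to between 323.9 and 371.5 CPM in WT and between 317.8 and 398.6 CPM in M92KO libraries, and Lep was at 0 in 1 WT library. Fabp4, named after its values were seen, made up most of these sums at 301.6 to 371.0 CPM, so they say little of the other fat cell markers. Of 6 endothelial markers 1 was lower, again beside 6.92% of all genes tested. This was the receptor Tie1 (-0.23 ± 0.07 SE, adjusted p-value 0.258 in edgeR). The 6 summed to between 860.6 and 930.5 CPM in WT and between 787.9 and 949.8 CPM in M92KO libraries. None of 5 red cell genes passed the unadjusted threshold. The most abundant, the beta globin Hbb-bs, had a log2 fold change of 0.66 ± 0.42 (SE, adjusted p-value 0.586 in edgeR), and the 5 summed to between 73.99 and 222.6 CPM in WT and between 142.9 and 335.9 CPM in M92KO libraries.

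The CPM of Slc22a5 as a share of that of Cpt1b was 5.19% in WT and 4.18% in M92KO mice, and the share of Acot2 relative to Hadha was 5.02% and 3.76%. The M92KO values of both shares lay below the WT values, with an exact permutation p-value of 0.1, the smallest possible with 3 libraries a group. Both pairs were chosen after their values were seen. The ratio of Acsl1 to Hadha, in contrast, was 1.10 ± 0.0655 in WT and 1.30 ± 0.200 in M92KO mice (SD, n = 3), with overlapping groups and an exact permutation p-value of 0.3.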
